A study of Homo sapiens with 4 samples.

Results

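Contractile actin and smooth muscle genes were followed through hematopoietic differentiation of the human induced pluripotent stem cell line BC1. The set held 10 genes: the muscle actins ACTA2, ACTA1, ACTG2 and ACTC1, and TAGLN, CNN1, MYL9, TPM1, TPM2 and CALD1. They were taken from the deposited table by gene symbol, with no threshold on their values, and all 10 were found among its 58274 gene IDs. RNA had been sequenced from undifferentiated BC1 cells, APLNR+ cells collected at day 2, CD31+CD34+ cells collected at day 5 and CD43+ cells collected at day 8. Differentiation was started with activin A and BMP4 for 2 days in custom mTeSR1 medium, which was followed by VEGF and bFGF for 6 days. APLNR (the apelin receptor) marks mesoderm, CD31 with CD34 marks endothelial cells that can give rise to blood, and CD43 marks early hematopoietic progenitors. Each population was represented by 1 library from 1 cell line, so no difference below has a replicate check and no p-value is given. Every interval given is a 95% counting interval, which covers the sampling of fragments and nothing else.

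Smooth muscle contracts when myosin pulls on actin filaments. ACTA2 (vascular smooth muscle) and ACTG2 (visceral smooth muscle) encode its actins, while ACTC1 and ACTA1 encode the principal actins of cardiac and skeletal muscle. TAGLN (transgelin, SM22), CNN1 (calponin) and CALD1 (caldesmon) bind the actin filament, TPM1 and TPM2 (tropomyosins) lie along it, and MYL9 is a regulatory light chain of smooth muscle and non-muscle myosin II. Most of these genes are known targets of serum response factor (SRF) and its cofactors of the myocardin family, and several are also used outside muscle, in stress fibres, platelets and migrating cells. In a mixed or sorted population, fewer cells expressing a gene and less RNA per cell cannot be told apart.

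Levels are FPKM, fragments scaled to transcript length and to the mapped fragments of the library, so they can be set side by side between genes. Across libraries they correct for depth only. Total FPKM ran from 607230 in CD31+CD34+ to 659857 in CD43+, a 1.09-fold range, and some calls below depend on the scaling. Depth was recovered from the steps between low FPKM values and ranged from 19600000 to 23600000 mapped fragments, a 1.20-fold range. Between libraries, the genes reaching 1 FPKM numbered 13554 to 14335. The labelled populations carried their own markers. The 9 measured mesoderm markers were all higher in APLNR+ than in BC1, 11 of 12 endothelial markers were higher in CD31+CD34+ than in APLNR+, and 11 of 11 measured hematopoietic markers were higher again in CD43+ cells. The remaining hematopoietic marker, PTPRC (CD45), named after its values were seen, stayed under 1 FPKM in all 4 libraries. SPN, which encodes CD43, measured 92.4 FPKM in CD43+ cells against 11.7 in CD31+CD34+ cells.

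The 10 contractile genes did not move as 1 group: ACTA2 rose 22.1-fold into CD31+CD34+ cells and TAGLN fell 21.2-fold into CD43+ cells. In the deposited FPKM, MYL9, TPM2 and CALD1 stayed within 1 log2 unit throughout. For MYL9 this depended on the scaling. Changes are differences of log2(FPKM + 1), a scale that understates the change of low genes, and a change of at least 1 is called higher or lower. From BC1 to APLNR+, 1 member was called higher (CNN1) and 2 lower (ACTA1, TPM1), against 9.15% and 9.32% of the 17137 genes with at least 1 FPKM in some library. From APLNR+ to CD31+CD34+, 1 was called higher (ACTA2) and 2 lower (ACTC1, CNN1), against 13.0% and 11.4% of all genes. From CD31+CD34+ to CD43+, 0 were called higher and 2 lower (TAGLN, CNN1), against 7.63% and 13.5%. All 10 members passed the filter of 1 FPKM, but ACTA1 and ACTG2 reached it in BC1 alone. These member counts, of 10, are small and are close to the background shares. The median change of the members was -0.25, -0.48 and -0.29 at the 3 transitions, beside 0.00, 0.01 and -0.08 over all genes. CNN1 was the member called at every transition, while MYL9, TPM2, CALD1 and ACTG2 were called at none.

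**Figure D1:**
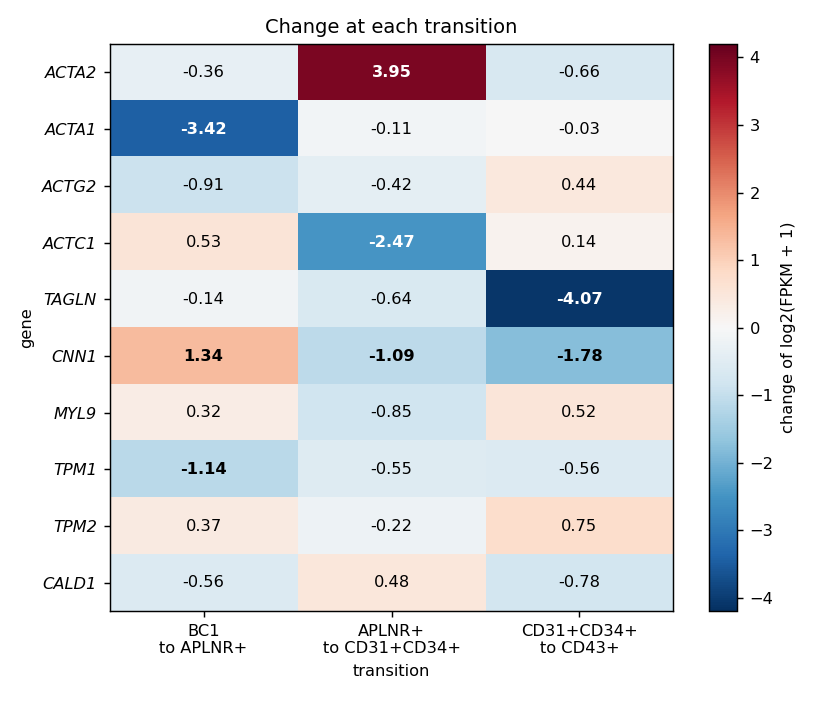
Change of log2(FPKM + 1) of each of the 10 genes (rows) at the 3 transitions (columns), red for higher and blue for lower in the later population, with the value printed in each cell and changes of at least 1 in bold. The 8 bold cells fall on 6 genes; the largest positive value is 3.95 for ACTA2 and the largest negative value is -4.07 for TAGLN.

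The library of highest level was BC1 for 5 members (27.7% of all genes), APLNR+ for 3 (22.7%), CD31+CD34+ for 1 (25.5%) and CD43+ for 1 (24.0%). The span from lowest to highest library, on log2(FPKM + 1), was widest for TAGLN (4.85), ACTA2 (3.95) and ACTA1 (3.56), and narrowest for TPM2 (0.90), CALD1 (0.86) and MYL9 (0.85). Over all genes tested the median span was 1.12. Members that differed most in shape were ACTA2 and TAGLN, whose centred profiles were 3.32 log2 units apart (root mean squared difference over the 4 libraries), and those most alike were MYL9 and TPM2, 0.39 apart.

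**Figure D2:**
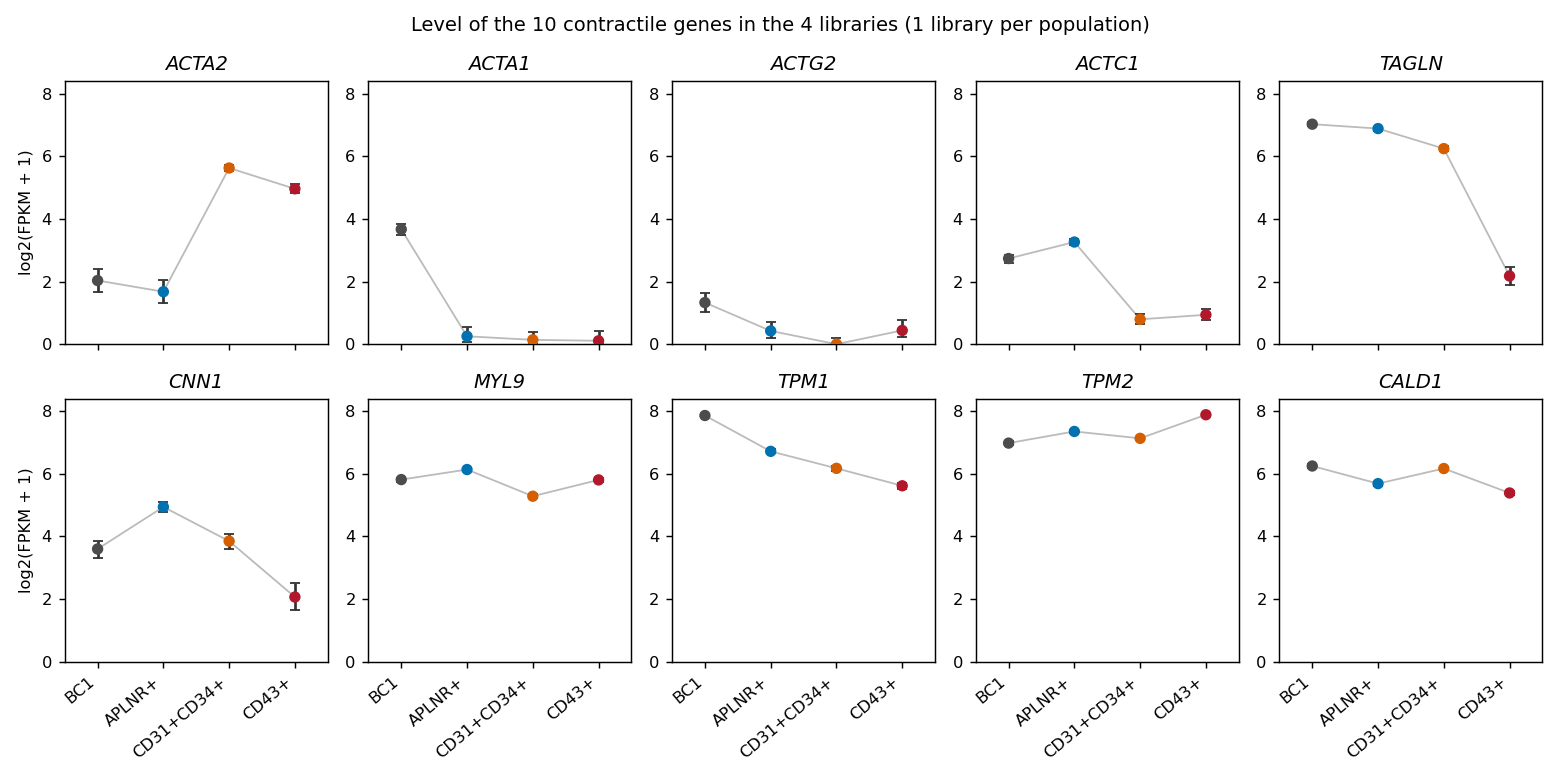
Level of each of the 10 genes, as log2(FPKM + 1), in BC1, APLNR+, CD31+CD34+ and CD43+ cells, 1 library each; bars are 95% counting intervals and lines join the libraries of a gene. ACTA2 is high in the last 2 populations, TAGLN is high in all but CD43+, and MYL9, TPM1, TPM2 and CALD1 stay above 5 in all 4.

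The leading muscle actin differed between the first 3 populations. The 4 of them summed to 22.0 FPKM in BC1 cells, 11.3 in APLNR+, 49.1 in CD31+CD34+ and 31.5 in the CD43+ cells. ACTA1 made up 53.3% of that sum in BC1, ACTC1 made up 75.9% in APLNR+, and ACTA2 made up 98.3% in CD31+CD34+ and 95.7% in the CD43+ cells. These are shares within a library, so they do not depend on how libraries are scaled against each other.

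ACTA2 (ENSG00000107796, chr10:88935074-88991339, minus strand, GRCh38) measured 3.09 FPKM in BC1 (interval 2.18 to 4.24), 2.19 in APLNR+ (1.47 to 3.15), 48.3 in CD31+CD34+ (44.8 to 52.1) and 30.1 in the CD43+ cells (27.2 to 33.3). It was low in the first 2 libraries and high in the last 2, and the intervals of these pairs lie far apart. From APLNR+ to CD31+CD34+ ACTA2 was 22.1-fold higher (15.2 to 33.2), a log2 change of 3.95. From CD31+CD34+ to CD43+ it was 1.60-fold lower (1.42 to 1.82), a change of -0.66 that was not called. The low values in BC1 and APLNR+ rested on 38 and 29 fragments, and their ratio of 1.41 had an interval of 0.846 to 2.37, which holds 1. The exons of ACTA2 overlap 380 bases of FAS and 516 bases of ACTA2-AS1 on the other strand. Whether strand was used in counting is not given in the sources used here, so reads of these partners cannot be told apart there. FAS measured at most 4.34 FPKM and ACTA2-AS1 at most 0.411 FPKM in any library.

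ACTA1 (chr1:229431245-229434098, minus strand) measured 11.7 FPKM in BC1 (10.3 to 13.3) and 0.190 in APLNR+, 0.10 in CD31+CD34+ and 0.0767 in the CD43+ cells. The BC1 value rested on 242 fragments and the other 3 on 4, 2 and 2, so ACTA1 stood well above the counting limit only in undifferentiated cells. It was 61.7-fold lower in APLNR+ than in BC1 (25.2 to 242). The 2 later values are at or under a floor of 3 fragments per library, and no fold between them is given.

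ACTC1 (chr15:34788096-34796139, minus strand) measured 5.65 FPKM in BC1 cells (5.09 to 6.24), 8.58 in APLNR+ (7.93 to 9.28), 0.732 in CD31+CD34+ (0.557 to 0.945) and 0.915 in the CD43+ cells (0.707 to 1.16). Its level was thus highest at day 2 and under 1 FPKM in the last 2 populations, the reverse of ACTA2. ACTC1 was 11.7-fold lower in CD31+CD34+ than in APLNR+ (8.97 to 15.6). The values of the last 2 populations had a ratio of 1.25 (0.865 to 1.80), an interval that holds 1.

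ACTG2 (chr2:73892314-73919865, plus strand) was the lowest muscle actin of BC1. It measured 1.51 FPKM in BC1 cells (1.03 to 2.08), 0.340 in APLNR+ and 0.355 in CD43+, and was listed at 0 in CD31+CD34+. ACTG2 was 4.45-fold lower in APLNR+ than in BC1 (2.09 to 11.5), a log2 change of -0.91 that stayed under the call on the log2(FPKM + 1) scale. APLNR+ and CD43+ had a ratio of 1.0 (0.390 to 3.39), which holds 1. Against the floor of 3 fragments, its level in CD31+CD34+ was at least 13.5-fold lower than in BC1. Scaled to the same total (TPM), the change from BC1 to APLNR+ was -1.14 and was called.

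**Figure D3:**
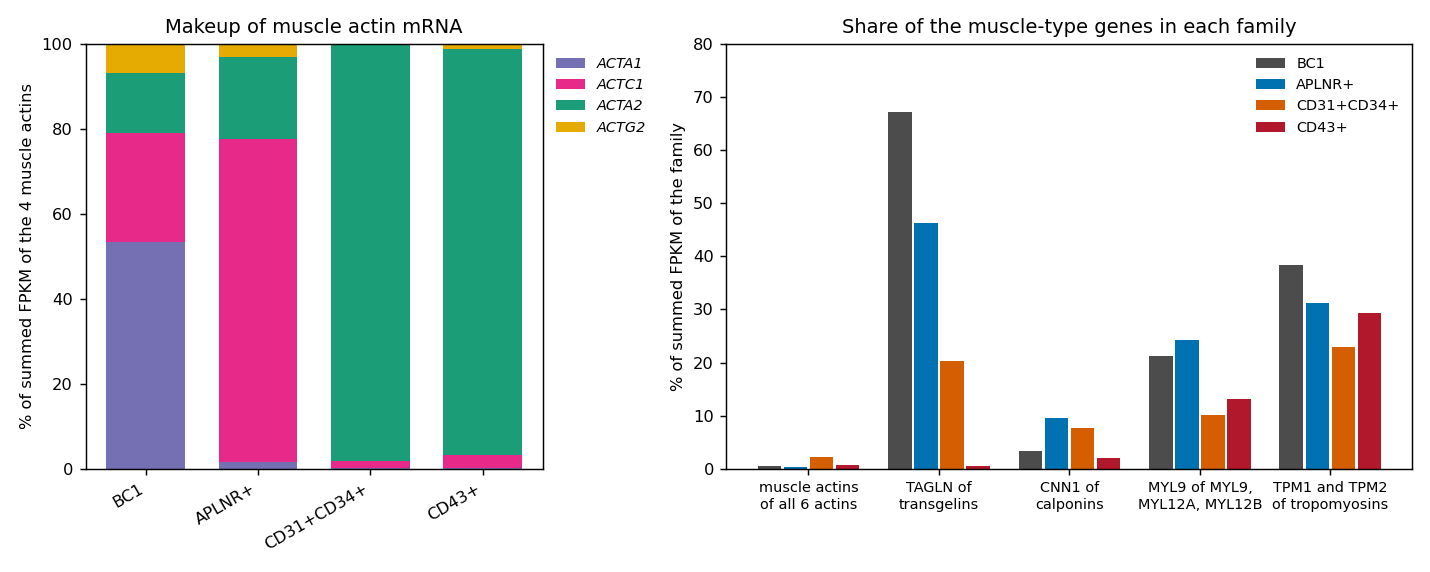
Left, share of each muscle actin in the summed FPKM of the 4 muscle actins, in percent, by population; right, share of the muscle-type genes in the summed FPKM of their protein family, in percent. The leading muscle actin is ACTA1 in BC1 (53.3%), ACTC1 in APLNR+ (75.9%) and ACTA2 in CD31+CD34+ and CD43+ (98.3% and 95.7%), and TAGLN goes from 67.1% of transgelins in BC1 to 0.577% in CD43+.

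The 4 actins encode nearly the same protein from clearly different mRNAs, which bears on whether fragments can be assigned to one of them. In GENCODE 29, their coding sequences shared 84.6% to 85.9% of bases in pairs, while the translated reading frames shared 97.9% to 99.2% of residues. ACTA2 and ACTA1 differed at 8 residues, and ACTA1 and ACTC1 at 4. No window of 50 bases of ACTA2 transcripts was found in another gene. Such windows made up 1.81% of ACTA1, 0.274% of ACTC1 and 0.0719% of ACTG2, mostly shared with actin-like copies such as the POTE genes.

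Promoters of the muscle actins are shown because SRF, the factor named above, binds a short sequence called the CArG box. The CArG box is CC, then 6 bases of A or T, then GG. It was searched on both strands in the RefSeq promoter table for GRCh38.p14. Windows there run from 250 bases before to 50 bases after a gene's start. There was an entry for 8 of the 10 members, while TAGLN and MYL9 had none and were not searched. A strict box was present in 3 of these 8 (ACTA1, ACTG2 and ACTC1), beside 1.60% of 27305 genes and 1.29% of 35116 windows. With 1 of the 6 middle bases allowed to be C or G, a search added after the strict result was seen, 5 of 8 members held a box (ACTA2 and CALD1 in addition), beside 9.88% of genes. The 2 boxes of ACTA2 lie 121 and 71 bases before the start of its inner promoter. The stretches below are written 5′ to 3′ on the strand of the gene, with boxes of either form in capitals and bases inside an exon of GENCODE 29 left out. The ACTG2 stretch ends before a box that crosses the edge of an exon. The ACTC1 stretch lies before the start that RefSeq gives, but inside the longer ACTC1 locus of the deposited table.
ACTA2, chr10:88952774-88953023, minus strand: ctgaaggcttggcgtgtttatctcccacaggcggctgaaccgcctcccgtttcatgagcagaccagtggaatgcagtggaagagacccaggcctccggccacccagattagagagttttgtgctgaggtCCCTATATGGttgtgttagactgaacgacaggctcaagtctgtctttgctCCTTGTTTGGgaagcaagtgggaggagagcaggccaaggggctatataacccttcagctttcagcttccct
ACTA1, chr1:229434099-229434344, minus strand: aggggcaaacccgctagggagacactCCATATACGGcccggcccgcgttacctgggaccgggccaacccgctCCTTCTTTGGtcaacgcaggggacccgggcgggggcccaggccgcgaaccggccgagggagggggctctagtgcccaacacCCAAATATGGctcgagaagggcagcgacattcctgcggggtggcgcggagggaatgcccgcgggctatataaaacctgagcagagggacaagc
ACTG2, chr2:73892758-73892934, plus strand: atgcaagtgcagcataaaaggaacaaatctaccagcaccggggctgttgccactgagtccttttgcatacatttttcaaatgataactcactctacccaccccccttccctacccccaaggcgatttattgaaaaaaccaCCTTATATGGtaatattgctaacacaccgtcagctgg
ACTC1, chr15:34795727-34795799, minus strand: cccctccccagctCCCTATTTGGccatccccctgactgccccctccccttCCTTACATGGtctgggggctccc

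A strict box of ACTG2 crosses the edge of an exon of another transcript in GENCODE 29, and that of ACTC1 falls inside one. Each is shown with 10 bases on either side, beside the strict box of the non-muscle actin ACTG1, whose level was at least 1101 FPKM in every library.
ACTG2, chr2:73892925-73892954, plus strand: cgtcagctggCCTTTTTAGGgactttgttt
ACTC1, chr15:34795639-34795668, minus strand: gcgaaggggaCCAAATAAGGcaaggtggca
ACTG1, chr17:81512874-81512903, minus strand: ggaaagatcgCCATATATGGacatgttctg

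The box was thus found upstream of actins whose levels went different ways. ACTA1 fell from BC1 to APLNR+, ACTC1 fell one step later, and ACTA2, with boxes that each have 1 base off the strict form, rose at that same step. Among the non-muscle relatives, 3 of 10 genes in the table (ACTG1, CNN2 and TPM4) held a strict box. ACTB had no entry and was not searched. The letters TATAAA were present in 4 of 8 members (ACTA1, ACTG2, ACTC1 and CALD1) and in 0 of 10 non-muscle relatives, beside 14.0% of all genes. The Smad-type letters CAGAC were present in 5 of 8 members and in 50.0% of all genes. These are matches of letters in 1 window per start site; binding was not measured.

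TAGLN and CNN1, the genes most often read as early smooth muscle markers, were already present in undifferentiated cells and were lowest in CD43+ cells. TAGLN (chr11:117199321-117204782, plus strand) measured 129 FPKM in BC1 cells (124 to 135), 117 in APLNR+ (112 to 122), 74.7 in CD31+CD34+ (70.8 to 78.8) and 3.52 in the CD43+ cells (2.67 to 4.54). It was 21.2-fold lower in CD43+ than in CD31+CD34+ (16.3 to 28.2), a log2 change of -4.07, and 36.8-fold lower than in BC1 (28.4 to 48.6). The 2 earlier steps were 1.10-fold and 1.57-fold lower and were not called. TAGLN exons overlap 446 bases of PCSK7 on the other strand. PCSK7 measured 17.7 FPKM in CD31+CD34+ and 19.8 in CD43+, so it did not move with TAGLN at that step.

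CNN1 (chr19:11538717-11550323, plus strand) measured 11.1 FPKM in BC1 cells (9.01 to 13.6), 29.7 in APLNR+ (26.3 to 33.4), 13.4 in CD31+CD34+ (11.2 to 15.9) and 3.18 in the CD43+ cells (2.14 to 4.65). It was highest at day 2: 2.67-fold higher in APLNR+ than in BC1 (2.10 to 3.40) and then 2.22-fold lower in CD31+CD34+ (1.79 to 2.76). A further step of 4.21-fold lower (2.75 to 6.51) led to CD43+. BC1 and CD31+CD34+ had a ratio of 1.21 (0.915 to 1.58), which holds 1, so their order was not resolved at the transcript length used. That length, the median of the coding transcripts, gave 95 and 128 fragments. The longest transcript gave 348 and 496, with narrower intervals of 9.97 to 12.3 and 12.2 to 14.6 FPKM that barely overlap.

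MYL9, the regulatory light chain whose phosphorylation switches the myosin motor on, stayed within 1 log2 unit across the 4 populations in the deposited FPKM. MYL9 (chr20:36541484-36551447, plus strand) measured 55.2 FPKM in BC1 cells (52.7 to 57.8), 69.2 in APLNR+ (66.4 to 71.9), 37.9 in CD31+CD34+ (36.0 to 39.9) and 54.8 in the CD43+ cells (52.4 to 57.3). In these values BC1 and CD43+ could not be separated by counting, with a ratio of 0.992 (0.930 to 1.06). CD31+CD34+, where ACTA2 was highest, had the lowest MYL9, 1.82-fold under APLNR+ (1.71 to 1.95).

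The tropomyosins had their highest levels at opposite ends of the series, TPM1 in BC1 and TPM2 in CD43+. TPM1 (chr15:63042632-63071915, plus strand) measured 231 FPKM in BC1 cells (224 to 239), 104 in APLNR+ (99.7 to 109), 71.1 in CD31+CD34+ (67.4 to 75.0) and 48.0 in the CD43+ cells (44.9 to 51.4). It was lower at each step, called at the first only (2.22-fold, 2.10 to 2.34), and 4.82-fold lower in CD43+ than in BC1 (4.47 to 5.20). TPM2 (chr9:35681992-35691020, minus strand) measured 125 FPKM in BC1 cells (120 to 131), 162 in APLNR+ (157 to 168), 139 in CD31+CD34+ (134 to 144) and 235 in the CD43+ cells (228 to 242). TPM2 was 1.87-fold higher in CD43+ than in BC1 (1.78 to 1.97), a log2 change of 0.90, under the call. TPM1 had 35.6% of the summed FPKM of the 10 members in BC1, the largest share there, and TPM2 had 56.3% in CD43+. With libraries scaled to the same median of 11 reference (housekeeping) genes, TPM2 was highest in APLNR+ and not in CD43+. That scaling also moved the median of all genes from APLNR+ to CD31+CD34+ to -0.47. TPM1 has 34 annotated transcripts, 19 of them coding, and its muscle and non-muscle forms were summed in these values. Exons of TPM1 share 2070 bases with TPM1-AS on the other strand, which measured at most 0.635 FPKM.

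CALD1 (chr7:134744252-134970728, plus strand) measured 74.9 FPKM in BC1 cells (72.2 to 77.8), 50.4 in APLNR+ (48.2 to 52.6), 70.8 in CD31+CD34+ (68.4 to 73.4) and 40.8 in the CD43+ cells (38.9 to 42.9). None of its steps was called, and BC1 and CD31+CD34+ differed by 1.06-fold (1.0 to 1.11). The step from APLNR+ to CD31+CD34+, 0.48 higher on the log2 scale, turned to -0.14 with libraries scaled on the reference genes. CALD1 also makes a long smooth muscle and a short non-muscle caldesmon from 1 gene, and these values do not separate them.

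Set against their relatives, the members were a small part of the actins and calponins and a larger part of the tropomyosins. The tropomyosin share is one of genes and not of muscle forms, since the forms of TPM1 were summed. ACTB and ACTG1, the cytoplasmic actins of every cell, summed to 3774 FPKM in BC1 cells, 4823 in APLNR+, 2133 in CD31+CD34+ and 4648 in the CD43+ cells. The muscle actins were 0.579%, 0.234%, 2.25% and 0.672% of all 6 actins in the same order, so their share was highest in CD31+CD34+, where ACTA2 was highest and ACTB and ACTG1 were lowest. From APLNR+ to CD31+CD34+, ACTB and ACTG1 were called lower, by -1.11 and -1.23 on the log2 scale.

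The transgelins changed over from TAGLN to TAGLN2, the form of blood and non-muscle cells. TAGLN2 measured 58.3 FPKM in BC1 cells, 131 in APLNR+, 293 in CD31+CD34+ and 605 in the CD43+ cells, and it was called higher at every transition. The call from APLNR+ to CD31+CD34+ was lost on the reference genes (0.53) and that to CD43+ as TPM (0.92). TAGLN accounted for 67.1% of transgelin FPKM in BC1 cells, 46.3% in APLNR+, 20.3% in CD31+CD34+ and 0.577% in the CD43+ cells. TAGLN3 added at most 5.27 FPKM.

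CNN1 was at most 9.63% of the calponins, a share reached in APLNR+, and 2.03% in the CD43+ cells. CNN2 and CNN3 were above CNN1 in all 4 libraries: CNN2 ran from 77.2 to 231 FPKM, and CNN3 from 35.8 to 125. MYL9 was 21.2%, 24.2%, 10.1% and 13.2% of the regulatory light chains, beside MYL12A and MYL12B, its close relatives by sequence (90.4% and 93.0% of residues). MYL12A went from 114 FPKM in BC1 to 279 in CD43+. TPM1 and TPM2 together were 38.3%, 31.2%, 23.0% and 29.4% of the tropomyosins, the rest being TPM3 (364 to 477 FPKM) and TPM4 (160 to 268 FPKM). The 11 non-muscle relatives also include the myosin light chain MYL6, which is in none of these shares. Of the 11, 1, 1 and 2 were called higher and 0, 3 and 1 lower at the 3 transitions.

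Other genes of smooth muscle were read from a list of 20, of which 13 reached 1 FPKM. At the 3 transitions 2, 6 and 2 of the 13 were called higher and 2, 2 and 7 lower. The defining smooth muscle myosin MYH11 measured at most 0.203 FPKM, LMOD1 at most 0.506 and DES at most 0.968 (genes named here for what they define, outside the naming rule). With these markers under 1 FPKM in every library, the 10 genes are described as genes and not as a cell type. Among the genes that rose with ACTA2 into CD31+CD34+ cells were CSRP1 (11.4 to 103 FPKM) and SMTN (14.6 to 82.6), which encode actin-associated LIM and smoothelin proteins. CSRP1 and SMTN were called lower into CD43+ (-1.17 and -1.24), where ACTA2 was not. MYLK, the kinase that phosphorylates myosin light chains such as MYL9, measured 3.88, 4.12, 9.58 and 125 FPKM from BC1 to CD43+, so it was highest where TAGLN and CNN1 were lowest. PDLIM3 followed CNN1, with 4.21, 17.0, 3.81 and 0.133 FPKM.

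**Figure D4:**
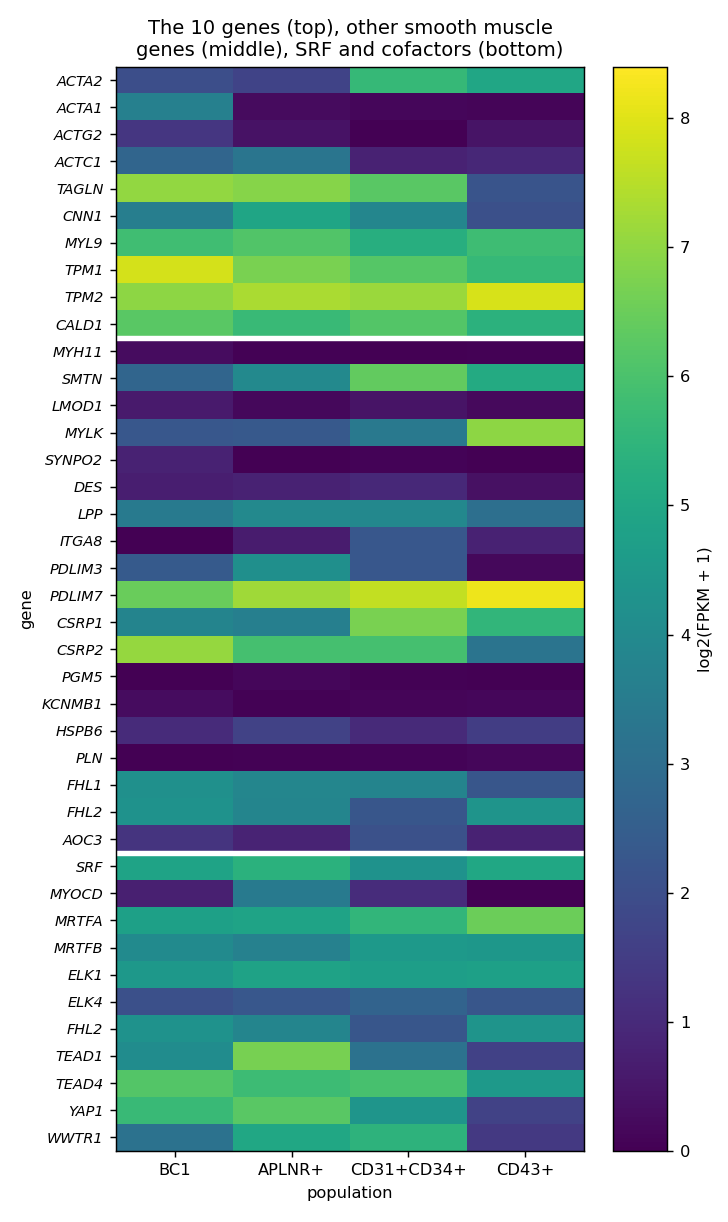
Level, as log2(FPKM + 1), of the 10 genes (top block), other smooth muscle genes (middle) and SRF with its cofactors and Hippo pathway genes (bottom) in the 4 populations. FHL2 stands in both lower blocks. MYH11, LMOD1 and DES are dark in every column, while CSRP1 and SMTN brighten in CD31+CD34+ together with ACTA2.

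A list of 11 genes held SRF, its cofactors and the Hippo pathway genes TEAD1, TEAD4, YAP1 and WWTR1 (TEAD4 named outside the naming rule). Of these 11, 3, 0 and 2 were called higher and 0, 5 and 5 lower at the 3 transitions. Into CD43+, MYOCD and these Hippo pathway genes were called lower, while FHL2 and MRTFA were called higher. MYOCD, the myocardin gene that drives cardiac and smooth muscle genes through SRF, measured 0.667 FPKM in BC1 cells, 9.80 in APLNR+ and 1.08 in CD31+CD34+, with a value of 0 for CD43+. It was highest where ACTC1 and CNN1 were highest and near 1 FPKM where ACTA2 was highest. TEAD1, YAP1 and WWTR1, of the Hippo pathway, were at 101, 74.8 and 31.2 FPKM in APLNR+, at 7.96, 19.8 and 42.5 in CD31+CD34+, and at 2.10, 2.15 and 1.63 in the CD43+ cells. TEAD1 and YAP1 were thus highest at day 2 and WWTR1 at day 5, and all 3 were lowest in CD43+. SRF itself, added after its values were seen, measured 28.5, 40.1, 18.4 and 30.8 FPKM, and MRTFA, likewise added, 26.5, 28.2, 44.7 and 90.5. MRTFA was called higher into CD43+ (1.0), and that call was lost as TPM (0.89).

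Of 12 genes that signal to the contractile apparatus, 2, 2 and 1 were called higher and 0, 0 and 2 lower. Of 16 non-muscle myosin and actin-binding genes, 1, 1 and 3 were called higher and 1, 3 and 6 lower. FLNC, the filamin of muscle, went from 3.49 FPKM in BC1 to 80.9 in APLNR+. At the step where TAGLN fell, genes of this list went both ways. PXN, an adaptor of focal adhesions, went from 143 FPKM in CD31+CD34+ to 8.56 in CD43+, whereas the filamin FLNA went from 90.5 to 387 FPKM and VCL (vinculin, also of focal adhesions) from 49.2 to 158 FPKM.

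TGF-beta is known to induce ACTA2, TAGLN and CNN1 in many cells. Of 11 genes that respond to it or handle it, 2, 5 and 2 were called higher and 3, 1 and 7 lower at the 3 transitions. ID1 measured 108, 49.5, 636 and 18.7 FPKM from BC1 to CD43+, and COL4A1 measured 15.7, 19.3, 80.9 and 7.57. Both were highest, like ACTA2, in CD31+CD34+ cells, but were called lower into CD43+, where ACTA2 was not. SMAD7, the inhibitory Smad, measured 13.0, 46.0, 32.2 and 1.27 FPKM, with its lowest value, like TAGLN and CNN1, in CD43+.

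Marker lists of cell types that use these genes also moved. The 17 cardiac genes summed to 59.2, 99.9, 105 and 288 FPKM from BC1 to CD43+, with NKX2-5 making up 69.2 FPKM of the CD31+CD34+ sum and MYL4 making up 260 FPKM of the CD43+ sum. Of the 9 measured, 5, 1 and 3 were called higher and 2, 3 and 3 lower at the 3 transitions. ACTC1 was highest in APLNR+, the library after the first of these. MYL7, the atrial light chain, measured 0.971, 51.7 and 1.39 FPKM before CD43+, where its value was 0. Other genes of the cardiac list did not rise with MYL7 into APLNR+. MYL2 was listed at 0 in all 4 libraries and MYH6 measured at most 0.928 FPKM (both named after their values were seen). TNNT2 went from 22.5 FPKM in BC1 to 1.20 in APLNR+. The 12 skeletal muscle genes summed to 120, 77.8, 43.5 and 93.2 FPKM, nearly all from TNNT1, and MYOD1, a defining gene of that list that was also named after its values were seen, measured at most 0.0908 FPKM. The part of such cells in the ACTC1 and ACTA1 levels was not tested.

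At the step where ACTA2 rose, the 11 mural cell genes summed to 108 FPKM in APLNR+ and 475 in CD31+CD34+, mostly from RGS5 (12.3 and 393 FPKM). Only 1 of the 10 measured was called higher at that step, and 7 of 10 were called lower into CD43+, where the sum was 20.3 FPKM and ACTA2 was 30.1. PDGFRB, a defining pericyte marker named after its values were seen, measured 5.50 FPKM in APLNR+ and 6.69 in CD31+CD34+. The 12 megakaryocyte and platelet genes summed to 5.87, 123 and 3841 FPKM in APLNR+, CD31+CD34+ and CD43+, and 10 of 12 were called higher into CD43+. MYLK was called higher at the same step, while the change of TPM2 there was 0.75 and was not called. The 10 fibroblast genes summed to 549, 996, 992 and 109 FPKM, and 5 of the 8 measured were called lower at the step where TAGLN fell. The part of these cell types in the ACTA2, TAGLN and TPM2 values was not tested.

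Genes with the most similar profiles were found for the 8 members with at least 10 FPKM in some library, by the root mean squared difference of centred log2(FPKM + 1) over the 4 libraries, among 8924 coding genes. With 4 points, likeness describes shape only. For ACTA2 these were ACRBP (0.063), IL16 (0.155) and SULT1C4 (0.183), all low in BC1 and APLNR+ and highest in CD31+CD34+. ACRBP measured 0.621, 0.296, 20.5 and 11.1 FPKM. For TAGLN the closest were CRMP1 (0.241), SORBS3 (0.319) and SPRY4 (0.350), a looser match than for the other members. SORBS3, which encodes the adhesion protein vinexin, measured 155, 202, 164 and 7.49 FPKM. For CNN1 they were WTIP (0.058), FGD6 (0.106) and FRMD6 (0.144). For ACTA1 they were DCLK1 (0.020), BICDL2 (0.045) and KLHDC7A (0.054), each above 10 FPKM in BC1 and under 1 FPKM in the other 3 libraries. MYL9 was closest to FIZ1 (0.031), TPM1 to GYG2 (0.083), TPM2 to SLBP (0.023) and CALD1 to HIF1A (0.045).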

How the data were processed

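Total RNA of the 4 populations was extracted with Trizol and made into libraries with an Illumina TruSeq RNA kit; the authors deposited 1 table of FPKM per gene for all 4 libraries. The submitters' processing notes name BWA, Bowtie, RSEM and hg19 without roles or versions, whereas 99.5% of the 58274 IDs in the table matched GENCODE 29 on GRCh38, and 55645 of the 55647 that had the same version were at the same position. Gene loci are given as in the table, which differ from GENCODE 29 for ACTC1 and TPM2; transcripts and exons are those of GENCODE 29. The deposited FPKM were used without further normalization; 90 IDs on several rows were summed.

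Genes that reached 1 FPKM in some library (17137) were compared on log2(FPKM + 1), with a change of at least 1 called. A count test was not applied, since each group has 1 library. Mapped fragments were recovered from single-transcript genes over 1000 bases, for which 80.5% to 81.6% of low values came out whole within 0.1. Fragments per member used the median length of its coding transcripts, and exact Poisson and Clopper-Pearson intervals (95%) followed. The number of fragments, and so the width of an interval, depends on that length. Scripts were tested on simulated data. Sequences came from RefSeq (GRCh38.p14) and GENCODE 29. Python 3.11.15, numpy 2.4.6, pandas 2.3.3, scipy 1.17.1, Biopython 1.88 and matplotlib 3.10.9 were used. Genes named are all 10 members and their 11 non-muscle relatives, from each other list the 3 largest called changes per transition, and 3 nearest profiles for each member with at least 10 FPKM; other genes are marked or overlap a member, and a few genes of the rule are not reported here. Members and lists were chosen with earlier results of these data known.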

Additional observations from a re-analysis of the deposited data

How the results depend on the processing

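The 8 called changes of members were recomputed under a pseudocount of 0.1, no filter, a filter at 5 FPKM, scaling to TPM, to the upper quartile or to the median of 11 reference genes, and a call at 2. Of these 56 values, 52 stayed on their side of the call, 0 reversed and 4 lost it, all under the call at 2 (CNN1 at its 3 steps and TPM1). The filter settings leave a member's own change as it is, so their values were the same by construction. The call at 2 alters only the threshold and could not reverse a value. That call left 1 member changed at the first transition and 1 at the last. Scaling on the reference genes moved the median of all genes from APLNR+ to CD31+CD34+ to -0.47, the member median to -1.02 and the count of changed members to 6 (1 higher and 5 lower, adding TAGLN, MYL9 and TPM1); of all genes 7.50% were then higher and 25.0% lower, beside 13.0% and 11.4%. It left 0 members highest in CD43+. TPM moved the median of all genes at the last transition to -0.17. Means in place of medians were -0.40, -0.19 and -0.60. A pseudocount of 0.1 called ACTG2 at all 3 transitions and gave a median of -0.60 for the transition to CD31+CD34+, and a filter at 5 FPKM, which drops ACTG2, one of -0.56 for that to CD43+. A CArG box with 1 base off, chosen after seeing the data, was found in 5 members. No paired analysis was possible because each population had 1 library. With 1 library each, differences between cultures cannot be told apart from differences between populations. The day of collection and the time spent in each set of factors also changed with the population and cannot be told apart from it.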
